A study of Mus musculus with 44 samples.

Results

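Solute carriers are membrane proteins that move metabolites, ions and vitamins across the plasma membrane or the membranes of organelles. They were taken here as every gene of the deposited table whose symbol begins with Slc followed by a digit, which gave 199 genes of 12707 symbols measured. The values come from 44 single Tomato-positive cells of hindlimb muscle from adult C57BL/6 mice carrying Prrx1-CreERT and a Tomato reporter. All cells form 1 group, and all donors had received tamoxifen at 2 mg daily for 3 days. In these mice the Cre recombinase is driven by Prrx1, a homeobox gene of limb mesenchyme, so that the label marks cells in which that driver was active when tamoxifen was given, and their descendants. The labels name no animals and there is no untreated or unlabelled group, so the cells count as 1 sample and all comparisons below describe these cells, with no p-value.

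Solute carriers fall into families by sequence, and the families differ in what they carry. The Slc25 family spans the inner mitochondrial membrane and exchanges ADP, ATP, phosphate and intermediates of metabolism. The Slc1, Slc7 and Slc38 families carry amino acids, Slc39 and Slc30 move zinc into and out of the cytosol, Slc2 carries hexoses, and Slc28 and Slc29 carry nucleosides. Muscle fibroblasts secrete a collagen-rich matrix, whose sulfated sugar chains need nucleotide sugars and the sulfate donor PAPS in the Golgi, brought there by members of Slc35. Each gene was placed in 1 of 17 substrate classes from its symbol and general knowledge. The 4 genes whose symbols match but whose products are not carriers were kept as a class of their own.

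Values are log2(FPKM + 1), where FPKM counts fragments per kilobase of a transcript and per unit of sequencing. The cells had been forced to a shared distribution, so levels are closer to ranks within a cell than to amounts of RNA. A gene is called present in a cell at FPKM 31 or more, a log2 value of 5, because lower values were shared between particular libraries. Of 377 genes that were strong in a single cell, 35.99% of the cells with linked libraries also stood at FPKM 1 or more, against 6.14% of unlinked cells of the same library set. The 44 libraries fall into 2 such sets, cells 1 to 21 and cells 22 to 44, which were defined from the data and are not groups of the study. Every cell carried at least 3 of 9 measured fibroblast genes at FPKM 31, with a median of 8, and all 6 endothelial genes were present in 0 cells. Of the 6 macrophage or blood genes 5 were present in 0 cells, while at least 3 genes were held by 8 cells for the tenocyte list, 8 for the mural list and 5 for the myofibre list.

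Most solute carrier genes were found in few of the cells. Of the 199, 152 were present in at least 1 cell (76.4%, against 78% of all genes), 47 in none, 40 in exactly 1 and 108 in 1 to 4 cells. Only 17 were present in at least 11 cells (8.54%, against 14.4% of all genes) and 4 in at least 22 cells (2.01%, against 5.25% of all genes). The median number of cells per gene was 2, as it was over all genes. At FPKM 1 the count in at least 22 cells was 32 (16.1%, against 25.4% of all genes). The genes make up 1.57% of the table and 1.05% of all presences of a gene in a cell, and where present their median log2 value was 6.91, against 7.14 for all genes. No carrier gene reached the level of the most abundant transcripts: the highest value of any was 11.52, for Slc43a3 in cell 39, against 14.948 in the table.

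**Figure D1:**
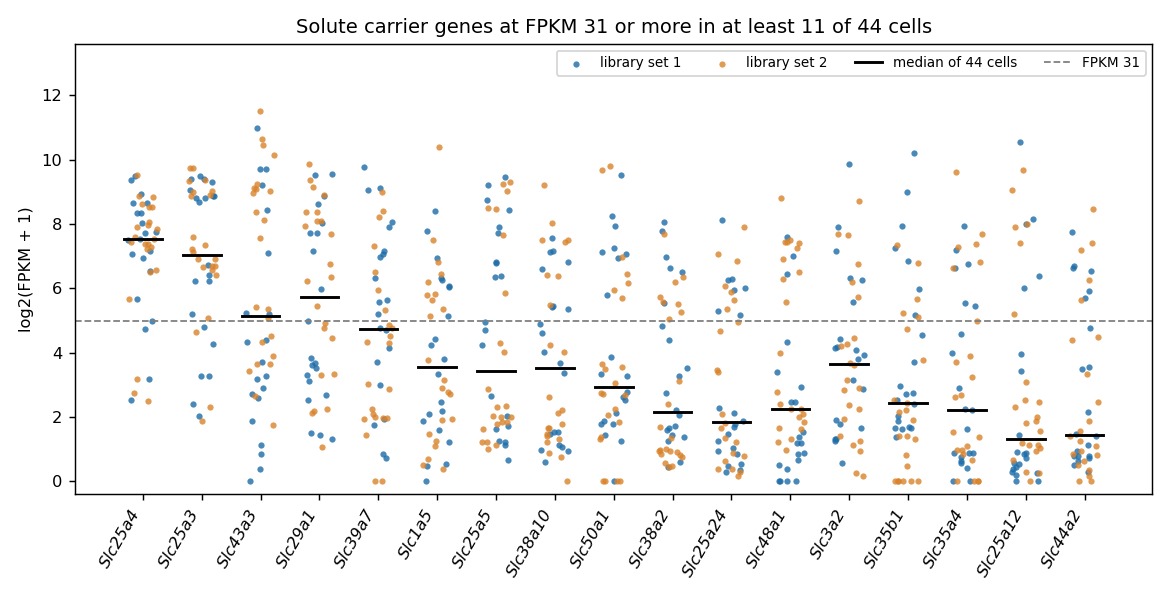
Log2(FPKM + 1) of the 17 solute carrier genes present at FPKM 31 or more in at least 11 of 44 cells. Each point is 1 cell, coloured by library set, the black bar is the median of 44 cells and the dashed line marks FPKM 31. The medians of Slc25a4, Slc25a3, Slc29a1 and Slc43a3 lie above that line and the other 13 below it.

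The highest medians were those of 2 mitochondrial carriers. Slc25a4, the ADP/ATP carrier that is the main form in heart and skeletal muscle, ranged from 2.50 to 9.52 with a median log2 value of 7.54. It was present in 37 of 44 cells (84.1%, exact 95% interval 69.9 to 93.4), and its median was 7.54 in both library sets. Slc25a3, which brings phosphate into the mitochondrial matrix, ranged from 1.87 to 9.74 with a median of 7.03 and was found in 35 cells (79.5%, 64.7 to 90.2). Both were at FPKM 1 or more in all 44 cells, and where absent at the FPKM 31 mark their median values were 3.17 and 3.27. Slc25a5, the ADP/ATP carrier of dividing and many other cells, was less even. Its range was 0.66 to 9.45 with a median of 3.44, and in the 17 cells that held it the median was 8.44, against 1.86 in the others. At least 1 of these 2 ADP/ATP carriers was present in 39 cells. Slc25a5 has processed pseudogenes in the reference annotation, and the sources used here do not give how reads shared with them were counted.

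Of the 39 Slc25 genes, 5 were present in at least 11 cells (12.8%, against 14.4% of all genes) and 8 in none (20.5%, against 22% of all genes), so the family as a whole lay near the background. Each cell held a median of 4, with a range of 2 to 7. Slc25a24, which exchanges ATP-magnesium for phosphate, ranged from 0.16 to 8.12 with a median of 1.83 and was found in 14 cells. Slc25a12, an aspartate and glutamate carrier of the malate-aspartate shuttle, was present in 11 cells, from 0 up to 10.56 in cell 20. Slc25a17, a peroxisomal member of the family, was present in 10 cells, the glutathione carrier Slc25a39 in 9 and the citrate carrier Slc25a1 in 8. Slc25a33, a pyrimidine nucleotide carrier, never exceeded 0.23. Each remaining Slc25 gene was thus present in at most 14 cells.

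Slc25a4 is abundant in myofibres, and its level was set beside the 10 measured myofibre genes. In the 14 cells with 0 of these at FPKM 31 its values ran from 2.52 to 9.52 with a median of 7.41, and it was present in 11. In the 25 cells with 1 or 2 of them the range was 2.50 to 9.49 and the median 7.44, with 21 cells positive. The 5 cells with 3 or more (cells 5, 7, 31, 41 and 44) ran from 8.05 to 9.37 with a median of 8.83. Those 5 cells lay above the medians of the others, the ranges overlapped, and Slc25a4 was also present in most cells with 0 of the 10 genes at FPKM 31. Spearman's rho between Slc25a4 and the number of myofibre genes was 0.24 over 44 cells and -0.00 over the 39 cells without those 5. These points share a normalization and, within blocks, linked libraries. The part of myofibre RNA in the Slc25a4 level was not tested.

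The nucleoside and nucleobase class held the other 2 genes present in at least 22 cells. Slc29a1 (ENT1), the equilibrative transporter that carries nucleosides such as adenosine across the plasma membrane, ranged from 1.06 to 9.88 with a median of 5.72. It was present in 23 cells (52.3%, 36.7 to 67.5), and at FPKM 1 in 44. Slc43a3, a purine nucleobase transporter, ranged from 0 to 11.52 with a median of 5.13 and was also found in 23 cells. Its median where present was 9.03, against 8.09 for Slc29a1, and it was present in 8 of 21 cells of library set 1 and 15 of 23 of set 2. Slc29a1 was present in 9 and 14 cells of these sets, so neither gene was in most cells of set 1. At FPKM 1 with more than 5 times the level that linked libraries would give, Slc29a1 stood in 28 cells and Slc43a3 in 21. Slc29a3, a nucleoside transporter of endosomes and lysosomes, was present in 7 cells and reached 9.11 in cell 22. In contrast, the 2 measured sodium-driven nucleoside carriers, Slc28a2 and Slc28a3, were present in 0 cells, which allows a share of up to 8.04%. Slc28a2 stood at 0 or at the lowest value of the cell throughout. An exon of Slc29a1 overlaps the annotated gene Gm17080, and the sources used here do not give whether the counting used strand.

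Of the 26 amino acid genes, 4 were present in at least 11 cells (15.4%, against 14.4% of all genes), a share near the background. The neutral amino acid and glutamine carrier Slc1a5, Slc38a10 and Slc38a2 were in the most cells. The other measured Slc1 and Slc38 genes were present in at most 5 cells each. Slc1a5 (ASCT2) ranged from 0 to 10.39 with a median of 3.55 and was found in 18 cells. Slc38a10, a relative of the glutamine transporters, ranged from 0 to 9.20 with a median of 3.52 and was found in 16 cells. Slc38a2 (SNAT2), a sodium-coupled carrier of small neutral amino acids, ranged from 0.45 to 8.07 with a median of 2.14 and was found in 14. At least 1 gene of the class was present in 42 of 44 cells (95.5%, 84.5 to 99.4). Of the 26 genes, 5 were present in none (19.2%, against 22% of all genes).

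Slc3a2 (CD98 heavy chain), which does not carry amino acids itself but takes light chains of the Slc7 family to the cell surface, ranged from 0.16 to 9.88 with a median of 3.65. It was present in 12 cells at FPKM 31 and in 40 at FPKM 1. Of its 5 measured light chains, Slc7a6 was present in 10 cells, while Slc7a10 and the cystine carrier Slc7a11 were present in 0, and Slc7a11 had a highest value of 1.58. Any light chain was present in 12 cells, and Slc3a2 and a light chain were found together in only 2, cells 12 and 29. For Slc3a2 with Slc7a6 the 2 shared cells compare with 2.73 expected from the shares of each. The light chain Slc7a5 is not analysed here, so the pairing covers part of the family. Slc43a1, a facilitated carrier of branched-chain amino acids, was present in 9 cells, and Slc1a3, a glutamate carrier of glia, in 2.

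The zinc carriers belong to a class of 25 metal genes. Of these, 1 was present in at least 11 cells (4%, against 14.4% of all genes) and 5 in none (20%, against 22% of all genes). Slc39a7 (ZIP7), which releases zinc from the endoplasmic reticulum into the cytosol, ranged from 0 to 9.77 with a median of 4.73 and was found in 19 cells, 12 of set 1 and 7 of set 2. Slc39a13 (ZIP13), whose loss in humans causes a form of Ehlers-Danlos syndrome, ranged from 0 to 9.15 with a median of 2.30 and was found in 9 cells. Slc39a10, a plasma membrane importer, was also present in 9. At least 1 of 11 Slc39 genes was present in 35 cells, against 10 cells for at least 1 of 6 Slc30 genes, a contrast that rests on unequal numbers of genes. Slc30a1, the zinc exporter of the plasma membrane, had a highest value of 0.86. Slc39a7 shares exon bases with the annotated gene Gm20427, and Slc39a13 with the proteasome gene Psmc3.

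The iron and copper carriers named here were each present in at most 8 cells, where the median over all genes was 2. Slc11a2 (DMT1), which takes ferrous iron into the cytosol, ranged from 0 to 8.64 with a median of 0.37 and was found in 4 cells. Slc40a1 (ferroportin), the only known iron exporter of mammalian cells, was present in 0 cells and at FPKM 1 in 4, with a highest value of 4.87. Slc39a14, which can take up iron not bound to transferrin, was present in cell 44 alone, at 9.44, and there it was the highest carrier gene, with 22.96% of the summed level of all carriers. Of the copper genes, Slc31a2 was present in 8 cells and the high-affinity importer Slc31a1 in 3. Of other genes that store or handle metals in the partner list, the ferritin chains Fth1 and Ftl1 were present in 44 cells each, the metallothioneins Mt1 and Mt2 in 43 and 39, and the metalloreductases Steap3 and Steap4 in 32 and 17. Of the copper-dependent ferroxidases, Cp (ceruloplasmin) was present in 14 and Heph (hephaestin) in 0, and the transferrin receptor Tfrc in 0.

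Sugar carriers were present in few cells, with 1 exception, and the class median of 1.5 cells per gene compares with 2 over all genes. Slc50a1 (SWEET1), a glucose-permeable carrier of intracellular membranes, ranged from 0 to 9.79 with a median of 2.93 and was found in 15 cells (34.1%, 20.5 to 49.9). Slc5a3, which imports the osmolyte myo-inositol, was present in 6 cells, and it shares exon bases with Mrps6 and Gm49711. Slc2a1 (GLUT1), the basal glucose transporter of many cell types, ranged from 0 to 8.13 with a median of 0.43 and was found in 4. Any of the 7 measured Slc2 genes was present in 8 cells (18.2%, 8.19 to 32.7). Of the 7, 3 were present in none, where 22% of all genes were. Slc2a3 and the insulin-regulated Slc2a4 are not analysed here, so these counts do not cover the muscle and fat glucose transporter. Hk1 and Hk2, the hexokinases that trap glucose after its entry, were present in 6 and 0 cells.

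The 2 lactate carriers named here were present in at most 1 cell each at the FPKM 31 mark, where the median over all genes was 2. Slc16a1 (MCT1) was present in cell 17 alone, at 7.01, and Slc16a3 (MCT4) in 0 cells with a highest value of 0.64. Their accessory protein Bsg (basigin), which brings both to the plasma membrane, was present in 35 cells with a median of 7.12, and lactate dehydrogenase A in 24. The mitochondrial pyruvate carrier subunits Mpc1 and Mpc2, whose symbols do not begin with Slc, were present in 13 and 17 cells.

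Carriers of the secretory pathway named here were present in a minority of cells each, as were most genes, since 5.25% of all genes stood in at least 22 cells. Of the 10 genes of the nucleotide sugar and PAPS class, 1 was present in at least 11 cells (10%, against 14.4% of all genes). Of the same 10, 2 were present in none (20%, against 22% of all genes), so the class lay near the background. Slc35b1, placed with the nucleotide sugar transporters by its family and also described as an importer of ATP into the endoplasmic reticulum, ranged from 0 to 10.21 with a median of 2.42 and was found in 12 cells. Slc35b2, which takes PAPS into the Golgi for sulfation, ranged from 0 to 8.35 with a median of 0.78 and was found in 7, and the UDP-galactose carrier Slc35a2 in 4. Slc26a2, the plasma membrane sulfate importer whose loss causes human chondrodysplasias, was present in 0 cells with a highest value of 4.66. The enzymes that make PAPS, Papss1 and Papss2, were present in 8 and 7 cells, whereas Ugdh, which makes UDP-glucuronate for hyaluronan and glycosaminoglycans, was present in 28. Slc35a4, whose substrate is unsettled, ranged from 0 to 9.62 and was present in 12 cells, and it shares exon bases with Apbb3.

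Heme and choline carriers each had 1 gene in at least 11 cells. These were 2 of the 9 genes of the vitamin, choline and heme class (22.2%, against 14.4% of all genes). Of the 9, 3 were present in none (33.3%, against 22% of all genes), and 9 genes are few for such shares. Slc48a1 (HRG1), which moves heme out of endosomes and lysosomes, ranged from 0 to 8.80 with a median of 2.24 and was found in 13 cells, 3 of set 1 and 10 of set 2. Its exons overlap those of Hdac7. Slc44a2, a choline transporter-like protein of the plasma membrane and mitochondria, ranged from 0 to 8.46 with a median of 1.45 and was found in 11 cells, and its relative Slc44a1 in 4. The folate carrier Slc19a1 and the vitamin C carrier Slc23a1 were present in 0 cells, and the other measured vitamin C carrier, Slc23a2, in 3, up to 7.10.

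None of the 14 genes of sodium, proton, chloride and bicarbonate transport was present in at least 11 cells, where 14.4% of all genes were. Their median was 2 cells per gene, as over all genes, and 2 of the 14 were in none (14.3%, against 22% of all genes). The potassium-chloride cotransporter Slc12a4 was present in 7 cells and reached 8.54 in cell 41, the sodium-proton exchanger Slc9a8 of the Golgi in 5 and the anion exchanger Slc4a2 in 4. The sodium-bicarbonate cotransporter Slc4a4 was present in 2 cells. At least 1 gene of the class was nevertheless present in 24 cells, since different cells held different genes. Of osmolyte and neurotransmitter carriers, the taurine carrier Slc6a6 was present in 7 cells with a range of 0 to 8.55, the glycine carrier Slc6a9 in 3 and the creatine carrier Slc6a8 in 0. The phosphate importers Slc20a1 and Slc20a2 were present in 2 and 1 cells, the fatty acid transport protein Slc27a1 in 2 and the sulfated steroid carrier Slc10a6 in 4. Slc8b1, the mitochondrial sodium-calcium exchanger, was present in 5 cells, and the lysosomal peptide carrier Slc15a4 in 1. Of the 4 genes that are not carriers, Slc4a1ap was present in 6 cells, Slc9a3r1 in 3, and Slc9a3r2 and Slc7a6os in 1 each.

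**Figure D2:**
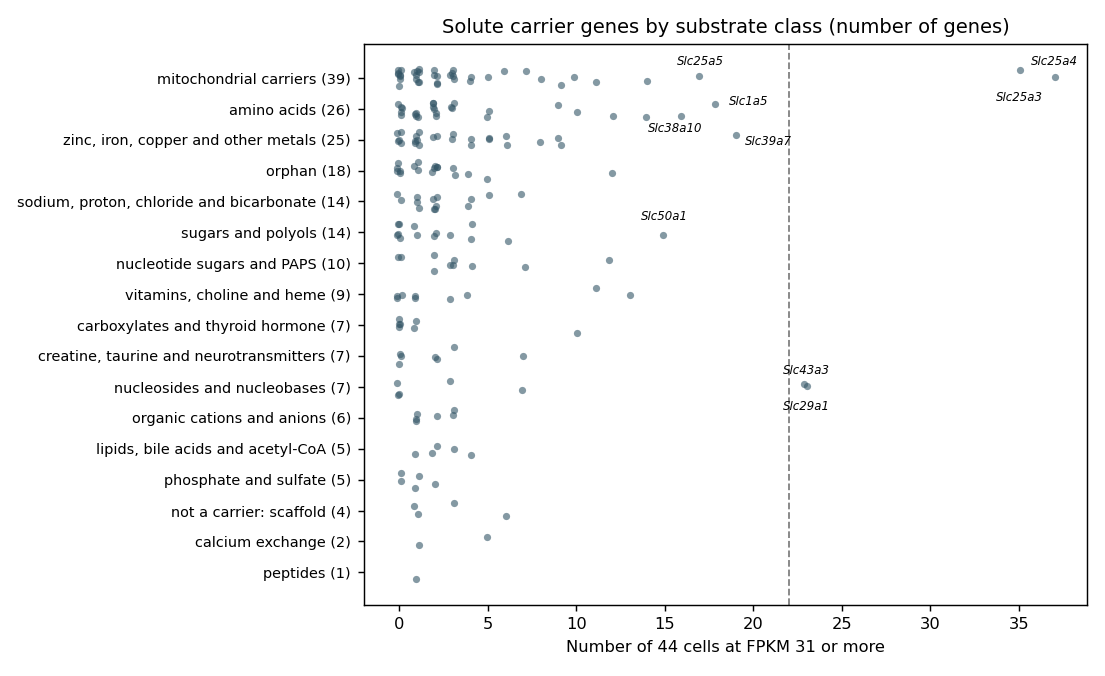
Number of cells of 44 in which each solute carrier gene was present at FPKM 31 or more, by substrate class. Each point is 1 gene, moved by a small random amount to separate points, the number after each class is its number of genes and the dashed line marks 22 cells. The 4 genes at or right of the line belong to the mitochondrial and nucleoside classes, and most genes of every class lie at 0 to 5 cells.

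The number of carrier genes differed between cells. A cell held a median of 16 at FPKM 31, with a range of 10 to 23 and a mean of 16.2 ± 3.44 (SD over 44 cells). The number of all genes present per cell was forced to 1531 to 1540. Genes found in few cells each give some spread by themselves, and whether the spread exceeds that was not tested. Cells 11, 31 and 41 held 23, and cells 10, 21 and 25 held 10. The median was 16 in both library sets. Carriers took a median of 0.609% of the summed FPKM of a cell, with a range of 0.311% in cell 32 to 1.17% in cell 31.

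The genes with the highest levels differed from cell to cell. The 3 highest carrier genes of a cell held a median of 45.9% of the summed carrier FPKM, from 28.04% in cell 35 to 74.3% in cell 39, and 50% or more in 17 of 44 cells. The highest gene was Slc43a3 in 10 cells, Slc25a3, Slc25a4 and Slc29a1 in 4 cells each, and 21 different genes took this place over the 44 cells. In cell 39 Slc43a3 alone held 60.9%, and in cell 21 it held 42.9%. In cell 43 the highest were Slc22a15, an organic cation carrier, and Slc10a6, with 21.3% and 16.3%, neither of which was the highest in any other cell.

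By class, mitochondrial carriers held a median of 30.8% of the summed carrier FPKM per cell, from 5.83% to 57.3%, and ranked highest in 31 cells, with 39 of the 199 genes. Nucleoside and nucleobase carriers held 14.1%, with the wider range of 0.117% to 61.0%, and ranked highest in 7 cells, with 7 genes. These sums grow with the number of genes in a class, and they rest on values forced to a shared distribution, so they are not shares of RNA amount. Metal carriers held a median of 9.23% and amino acid carriers 9.18%, and the sugar class 2.76%. Between the library sets the mitochondrial share was 31.2% and 30.5% and the amino acid share 9.26% and 9.06%. The metal share was 15.7% in set 1 and 8.17% in set 2, the nucleoside share 8.69% and 16.5%, and the sugar share 5.78% and 0.566%. Library set cannot be told apart from any difference between the cells of the sets.

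**Figure D3:**
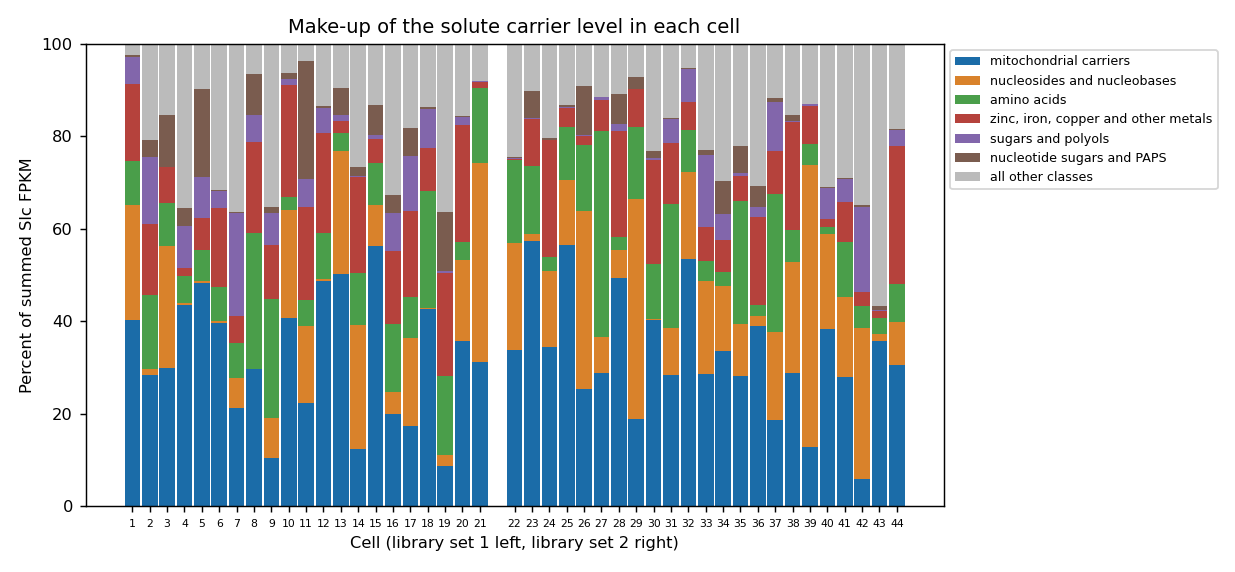
Share of each substrate class in the summed FPKM of all solute carrier genes, as percent per cell, for 44 cells in order of their number and split into library sets. Mitochondrial carriers range from 5.83% to 57.3%, and the nucleoside class from 0.117% to 61.0%, the highest in cell 39.

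The mitochondrial and the nucleoside genes that led their classes were found together about as often as their shares predict. Slc25a4 and Slc25a5 were both present in 15 cells with 14.3 expected, only Slc25a4 in 22, only Slc25a5 in 2 and neither in 5, with a Spearman rho of -0.08 over 44 cells. Slc29a1 and Slc43a3 were both present in 12 cells with 12.02 expected, and rho was 0.06. Slc25a4 and Slc25a3 were both present in 30 cells with 29.4 expected, whereas Slc43a3 and its relative Slc43a1 were both present in 7 with 4.70 expected and a rho of 0.26. Values under 5 were set to 5 for these correlations, and the points share a normalization and, within blocks, linked libraries. Among the 136 pairs of the 17 genes present in at least 11 cells the median rho was 0.01, with 5 pairs over 0.3 and 5 under -0.3. The highest was Slc50a1 with Slc44a2, at 0.44, with 7 shared cells and 3.75 expected, and it was 0.37 and 0.42 within the library sets. Slc35a4 with Slc25a3 followed at 0.43, where all 12 cells with Slc35a4 also held Slc25a3 and 9.55 were expected. The lowest were Slc25a12 with Slc25a3 at -0.44, Slc29a1 with Slc25a4 at -0.39 and Slc1a5 with Slc25a12 at -0.38, and the last were found together in 1 cell with 4.50 expected. These pairs were picked as the extremes of 136, so their size is a description.

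**Figure D4:**
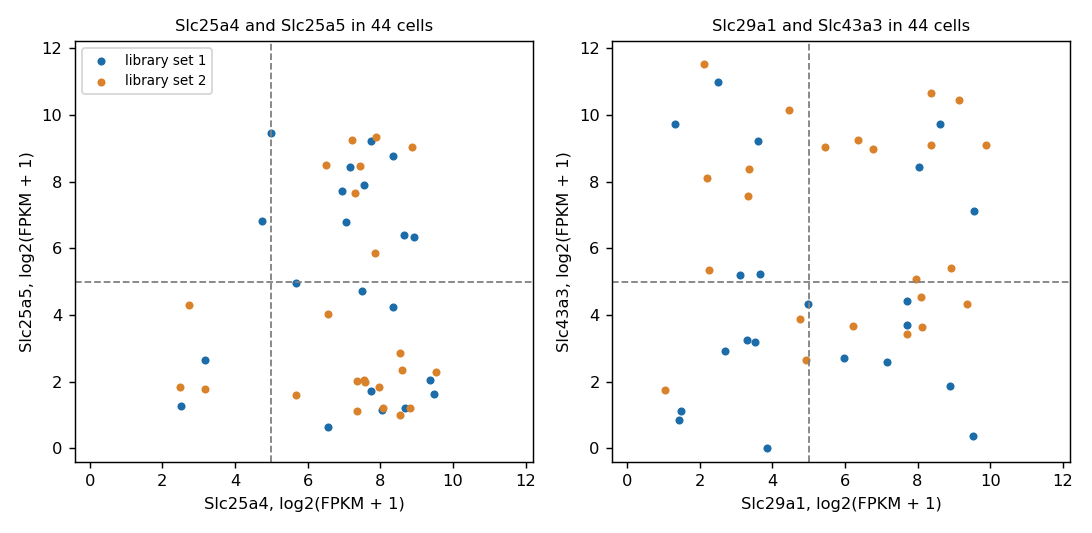
Log2(FPKM + 1) of Slc25a5 against Slc25a4, and of Slc43a3 against Slc29a1, in 44 cells coloured by library set. Dashed lines mark FPKM 31. In the left panel 15 cells lie in the upper right field, and in the right panel 12, 11, 11 and 10 cells lie in the 4 fields.

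Carriers were also compared between clusters of the cells. Clustering on genes outside the carriers and marker lists gave 4 clusters of 10, 24, 5 and 5 cells, with a low mean silhouette of 0.120. The cluster of 10 was led by Pi16 and held 7.20 ± 1.03 of 8 Dpp4-type and 3.6 ± 1.51 of 8 Cxcl14-type fibroblast genes per cell. The cluster of 24 was led by Inmt and Apod and held 4.42 ± 2.02 and 6.46 ± 0.884 of them (SD over cells). In the clusters of 5 the Dpp4-type means were 2.4 and 4.6 and the Cxcl14-type means 6 and 5.2. Cxcl14-type genes thus did not set the cluster of 24 apart from these. The counts describe the clusters and do not test their identity. Between the clusters of 10 and 24 the mean of no carrier gene differed by 2 or more on the log2 scale. Of the 199, 60 stood at the floor of 5 in all cells of both clusters and could not differ. The background is the 11438 genes outside the carriers, the marker lists and the variable genes used for clustering, of which 0.0437% were higher by that much in the cluster of 10 and 0.0175% in the cluster of 24. At a difference of 1, a mark added later, 1 carrier was higher in each (0.503%, against 0.551% and 0.367% of the background genes), a share near the background. Slc43a3 had a mean of 8.21 ± 2.44 in the cluster of 10 and 6.66 ± 2.21 in that of 24, a difference of 1.55, and was present in 7 of 10 and 12 of 24 cells. The difference had the same sign in both library sets, at 1.84 and 1.32. Slc50a1 had means of 5.15 ± 0.31 and 6.15 ± 1.65, a difference of -1.004, and was present in 2 of 10 and 10 of 24 cells. Values of both genes overlapped widely between the clusters, and without the floor of 5, which also changes the clusters, both differences turned, to -2.56 and 2.81. The number of carrier genes present per cell had medians of 15 and 16.5.

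Other transport genes were measured in the same cells. Of 101 genes in a list of partners, pumps, channels and neighbouring enzymes, 93 were measured, 14 were present in at least 22 cells (15.1%, against 5.25% of all genes) and 16 in none (17.2%, against 22%). The list was chosen by hand, with earlier results known. The proton pump subunit Atp6v0c was present in 31 cells with a median of 7.44 and the ABC transporter Abca8a in 36 with a median of 7.52. The outer mitochondrial membrane channel Vdac3 was present in 24 cells and the chloride channel protein Clic1 in 23. Mtch2 and Ucp2, members of the mitochondrial carrier superfamily under other symbols, were present in 20 and 17 cells. Atp1b3, a beta chain of the sodium pump, was present in 15 cells, and the fatty acid translocase Cd36 in 1.

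Promoter sequence was available from RefSeq (GRCm38.p6) for 156 of the 199 genes and 9556 genes of the table, in windows of 250 bases before to 50 after the gene start. The GC box GGGCGG, searched on both strands, was in 73.7% of carrier windows and 64.6% of all, and CCAAT, on both strands, in 33.97% and 38.1%. TATAAA was in 5.13% and 7.24%, TGATGNAA, the core of the amino acid response element, in 2.56% and 2.22%, and the cAMP response element TGACGTCA in 1.92% and 3.28%. Of the 13 genes with a window among the 17 in at least 11 cells, 11 held the GC box (84.6%), 2 held CCAAT (15.4%), 1 held TGATGNAA, 0 held TATAAA and 0 held TGACGTCA. Over all 1442 genes with a window in at least 11 cells, these motifs were in 66.6%, 40.0%, 1.87%, 8.81% and 3.26%, in the same order. With 13 windows the counts are a description only. Windows of 5 of them are printed below 5′ to 3′, cut to the bases before both the RefSeq and the GENCODE gene start, with GC box matches in capitals, so that the phosphate carrier, the second ADP/ATP carrier, the most frequent zinc carrier and the pair with the highest correlation can be compared. They are chr10:91124060-91124217 on the minus strand, chrX:36795347-36795596 on the plus strand, chr17:34031691-34031940 and chr3:89270571-89270820 on the minus strand and chr9:21320469-21320697 on the plus strand, in the order shown.
Slc25a3: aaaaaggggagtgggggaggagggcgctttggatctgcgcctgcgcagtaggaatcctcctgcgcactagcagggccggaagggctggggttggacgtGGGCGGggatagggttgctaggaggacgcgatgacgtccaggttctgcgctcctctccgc
Slc25a5: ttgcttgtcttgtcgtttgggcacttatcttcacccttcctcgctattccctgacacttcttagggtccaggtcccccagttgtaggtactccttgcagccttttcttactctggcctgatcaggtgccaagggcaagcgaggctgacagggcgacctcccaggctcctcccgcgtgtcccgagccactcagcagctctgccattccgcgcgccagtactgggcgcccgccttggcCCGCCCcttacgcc
Slc39a7: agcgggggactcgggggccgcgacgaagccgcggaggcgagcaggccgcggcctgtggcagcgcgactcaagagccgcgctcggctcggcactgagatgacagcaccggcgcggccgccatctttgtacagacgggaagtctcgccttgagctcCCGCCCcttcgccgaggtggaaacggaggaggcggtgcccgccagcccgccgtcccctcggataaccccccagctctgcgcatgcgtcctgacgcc
Slc50a1: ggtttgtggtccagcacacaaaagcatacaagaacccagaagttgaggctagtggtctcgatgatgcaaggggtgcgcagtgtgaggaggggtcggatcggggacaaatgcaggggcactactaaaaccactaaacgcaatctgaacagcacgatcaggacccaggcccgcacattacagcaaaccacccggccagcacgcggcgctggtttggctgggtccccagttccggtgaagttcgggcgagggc
Slc44a2: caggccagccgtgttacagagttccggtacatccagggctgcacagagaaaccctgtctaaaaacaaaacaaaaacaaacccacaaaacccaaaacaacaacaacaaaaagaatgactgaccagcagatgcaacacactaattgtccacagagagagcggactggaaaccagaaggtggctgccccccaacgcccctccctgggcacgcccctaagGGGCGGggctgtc
Slc25a3, Slc25a5, Slc39a7 and Slc44a2 each held 1 GC box in the printed stretch and Slc50a1 held 0, and none of the 5 held CCAAT on either strand. The correlated pair Slc50a1 and Slc44a2 thus did not share either motif here, and the Slc50a1 stretch held 1 match to TGATGNAA. The GC content of the stretches was 65.2% for Slc25a3, 61.6% for Slc25a5, 72.4% for Slc39a7, 58.4% for Slc50a1 and 53.3% for Slc44a2. A match is a description of letters, and no binding was measured.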

How the data were processed

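Single Tomato-positive cells had been sorted and then picked under a fluorescence microscope, and libraries were made with Nextera XT, per the labels' protocols. GRCm38, TopHat2 and Cufflinks are named, with no versions, per the submitters' processing notes. The authors deposited 1 table of 12745 rows of log2 values for 44 cells, whose name gives FPKM. That the values are log2(FPKM + 1), with a pseudocount of 1, was inferred from their range, with a highest value of 14.948, and the sources used here do not give it. In each cell 4022 rows reached FPKM 1, and sums ran from 579623 to 579912 FPKM, so the cells had been forced to a shared distribution, sequencing depth is unknown and levels are closer to ranks within a cell than to amounts of RNA.

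Gene IDs matched the GENCODE annotation of GRCm38 in 12711 rows, 18 symbols written as dates were restored, and repeated symbols kept the row of highest mean. All 199 carrier genes had coordinates, and 59 had an exon overlapping another gene. Classes came from hand-written tables, with 5 genes placed after the symbols in the table had been seen. Shares of cells have exact Clopper-Pearson 95% intervals, which cover counting error only. Linked libraries were pairs with a Spearman correlation over 0.540 on alternate rows (172 of 946 pairs). The 6 blocks hold 7 mutually linked cells each, and 2 cells stand in none. The carried fraction was estimated at 0.278%. Clusters used 1000 variable genes outside the carrier and marker lists, values under 5 set to 5, 10 principal components and Ward linkage with 2 to 6 clusters. The link and cluster steps were run on simulated data, the cluster step with a strong planted difference. Clusters as weakly separated as those found here were not simulated, so that run does not bear on them. No doublet caller was run on these hand-picked cells. No test across samples was possible, as the labels name no animals.

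The members, lists, thresholds and tests were chosen with earlier results of these data known. Named by rule were the genes in at least 22 cells, per class the 3 in the most cells and the 1 in the fewest, the 10 with the largest interquartile range and a fixed list, in all 78 genes, of which those not mentioned in the text are in classes described by their counts. Of the fixed list, 4 genes are not analysed here, and some other results are not reported here. Slc25a12, Slc25a17, Slc25a39, Slc25a1, Slc7a6, Slc43a1, Slc31a2, Slc28a3, Slc19a1, Slc23a2, Slc22a15 and Slc39a2 were named after their values were seen. Python 3.11.15, pandas 2.3.3, SciPy 1.17.1, scikit-learn 1.9.0 and networkx 3.6.1 were used.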

Additional observations from a re-analysis of the deposited data

How the results depend on the processing

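The number of carrier genes in at least 22 cells, 4 at FPKM 31, was 99 at FPKM above 0, 32 at FPKM 1, 10 at FPKM 5, 9 at FPKM 10, and 12 at FPKM 1 with more than 5 times the level that linked libraries would give. It was 17 in at least 11 cells and 2 in at least 33. Keeping the first row for repeated symbols or only the clusters of 10 and 24 cells gave 4, and within library sets 1 and 2, alternatives added after seeing the data, 3 and 4 genes stood in the same share of that set's cells. The genes were not the same, as set 1 had Slc39a7 (12 of 21 cells) and not Slc29a1 or Slc43a3 (9 and 8 cells). In the same order of thresholds the median number per cell, 16, was 98.5, 49, 28, 23 and 34. The class shares moved by less than 1 SD over cells: with values under 5 set to 0 the mitochondrial, nucleoside and amino acid medians were 30.9998%, 14.897% and 8.65%, and without mitochondrial carriers the last pair were 21.4% and 14.6%. Scaling to 1000000 (TPM) multiplies cells with nearly equal sums and tests nothing.

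Carriers that differed by 2 or more between the clusters, 0 in the setting reported, numbered 1 with a floor of 4, 9 with no floor and 1 with 500 variable genes, and 0 with a floor of 6, 2000 genes or k-means. The difference of Slc43a3 ran from 1.07 to 2.21 over these settings, except with no floor (-2.56), and that of Slc50a1 from -1.50 to -0.29, except with no floor (2.81). The clusters themselves change with each setting, and the cause was not tested. The 2 clusters compared held 6 and 11 cells with no floor, and 41 and 3 with 2000 genes, which gave the -0.29. The ranges therefore do not describe 1 contrast of the same cells. Without the floor rho turned from 0.12 to -0.21 for Slc3a2 with Slc7a7 and from -0.21 to 0.19 for Slc16a1 with Bsg, which rest on 2 and 1 cells over the floor. No paired analysis was possible because the cells form 1 group.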

Other observations

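Slc39a2, a zinc importer, stood at FPKM 1 or more in 20 cells and at FPKM 31 in 0. The source of its low values was not tested.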
